A study of Mus musculus with 15 samples.

Results

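The genes described here encode the voltage-gated calcium, sodium and potassium channels and their close relatives. They were taken by symbol: Cacna, Cacnb or Cacng followed by a number, Scn followed by a number and a or b, and Kcn followed by a letter and a number. The rule found 120 of the 55359 genes in the matrix, of which 26 belong to calcium channels, 14 to sodium channels and 80 to potassium channels. The potassium channel symbols also take in 15 inward rectifiers, 14 two-pore channels and 7 calcium- or sodium-activated channels, most of which do not open with voltage. Of the 120 genes, 113 were above 0 in at least 1 library. The other 7 (Kcna3, Kcna10, Kcne3, Kcne4, Kcnj13, Kcnj15 and Scn2b) were listed at 0 in all 15 libraries, so nothing is said of their expression.

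Voltage-gated channels are membrane proteins that open a pore when the voltage across the membrane changes. Calcium and sodium channels carry the inward currents that drive action potentials, and calcium entry triggers the release of hormones and transmitters. Potassium channels carry outward current, set the resting voltage and end each spike. A pore-forming alpha subunit works with accessory subunits, such as alpha2delta and beta for calcium channels and small beta subunits for sodium channels. Neuroendocrine cells, including those of small cell lung carcinoma (SCLC), are excitable, and antibodies against the P/Q-type calcium channel of SCLC cells cause the Lambert-Eaton myasthenic syndrome.

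RNA was sequenced after poly-A selection in 5 groups of 3 mouse libraries. 46LCNEC_cell is 1 adherent line of large cell neuroendocrine carcinoma (LCNEC) and 57SCLC_cell is 1 line of SCLC that grows as floating aggregates, each sampled from 3 dishes or flasks. Both came from lung tumors of QKO mice, which carry floxed Rb1 and Trp53 alleles, among others, and lack Rbl1. The LCNEC tumor was started by an adenovirus with Cre under the CMV promoter and the SCLC tumor by one with Cre under the K5 (keratin 5) promoter. 46LCNEC_allo and 57SCLC_allo are tumors that grew from these lines under the skin of immunocompetent QKO mice, and Lung is normal lung tissue of littermates of those recipients. Each tumor type is represented by 1 line, so a difference between the tumor types cannot be told apart from a difference between these lines, and the p-values measure only the spread among dishes, flasks, tumors or lungs.

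Values are normalized counts, that is, reads per gene divided by the size factor of the library. The reads behind them ranged from 9480244 to 44876572 per library. Of the 5 neuroendocrine markers Chga, Syp, Scg3, Ncam1 and Insm1, all were above 3 reads in every 57SCLC library, where they summed to 45752.7 to 58818.1 normalized counts in the cells and 37896.3 to 49777 in the allografts. Of these 5, 2 were above 3 reads in all 46LCNEC cells and 2 in all 46LCNEC allografts, and nearly all of their sum (28644.4 to 31526.1 and 3086.08 to 7397.2) was Ncam1. Chga had 3.75, 6.62 and 2.31 in 46LCNEC_cell, Insm1 10.3, 5.52 and 1.54 and Scg3 0.938, 2.21 and 1.54, so these 3 defining markers were near 0 in the cells labelled LCNEC, and Syp was low, with 15.01, 15.5 and 10.8. In Lung, the alveolar markers Sftpc, Sftpb, Ager and Sftpa1 summed to 192531 to 260069. Rb1, deleted in the model, had 66.6, 90.5 and 99.9 normalized counts in 46LCNEC_cell and 229, 236 and 777 in 57SCLC_cell. Counts over the whole gene include exons outside the deleted part, so they do not check the labels. Flask C of 57SCLC_cell and Lung CT5 stood apart from the other libraries of their groups for the genes named further on.

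The lines differed in how much channel RNA they held and in which channels it was. Summed over the 120 genes and divided by exon length, the level was 14463.9 to 15559.2 normalized counts per kb in 57SCLC_cell and 15516.5 to 17800.3 in 57SCLC_allo. It was 2640.07 to 2911.3 in 46LCNEC_cell, 3882.43 to 4619.15 in 46LCNEC_allo and 7781.91 to 8065.79 in Lung, so the groups did not overlap except for the 57SCLC cells and allografts. In 57SCLC_cell the family with the highest sum was that of the Kv alpha subunits, with 6437.98 to 6573.4 per kb, against 148.466 to 182.899 in 46LCNEC_cell. In 57SCLC_cell 84 of the 120 genes had more than 3 reads in all 3 libraries, as did 84 in Lung, 80 in the SCLC allografts, 60 in the LCNEC cells and 60 in the LCNEC allografts. Median depth ran from 16847847 reads in 57SCLC_allo to 41452513 in 57SCLC_cell, so this floor favors the deeper groups. The share over all genes was not computed, so these counts only describe the channel genes.

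**Figure D1:**
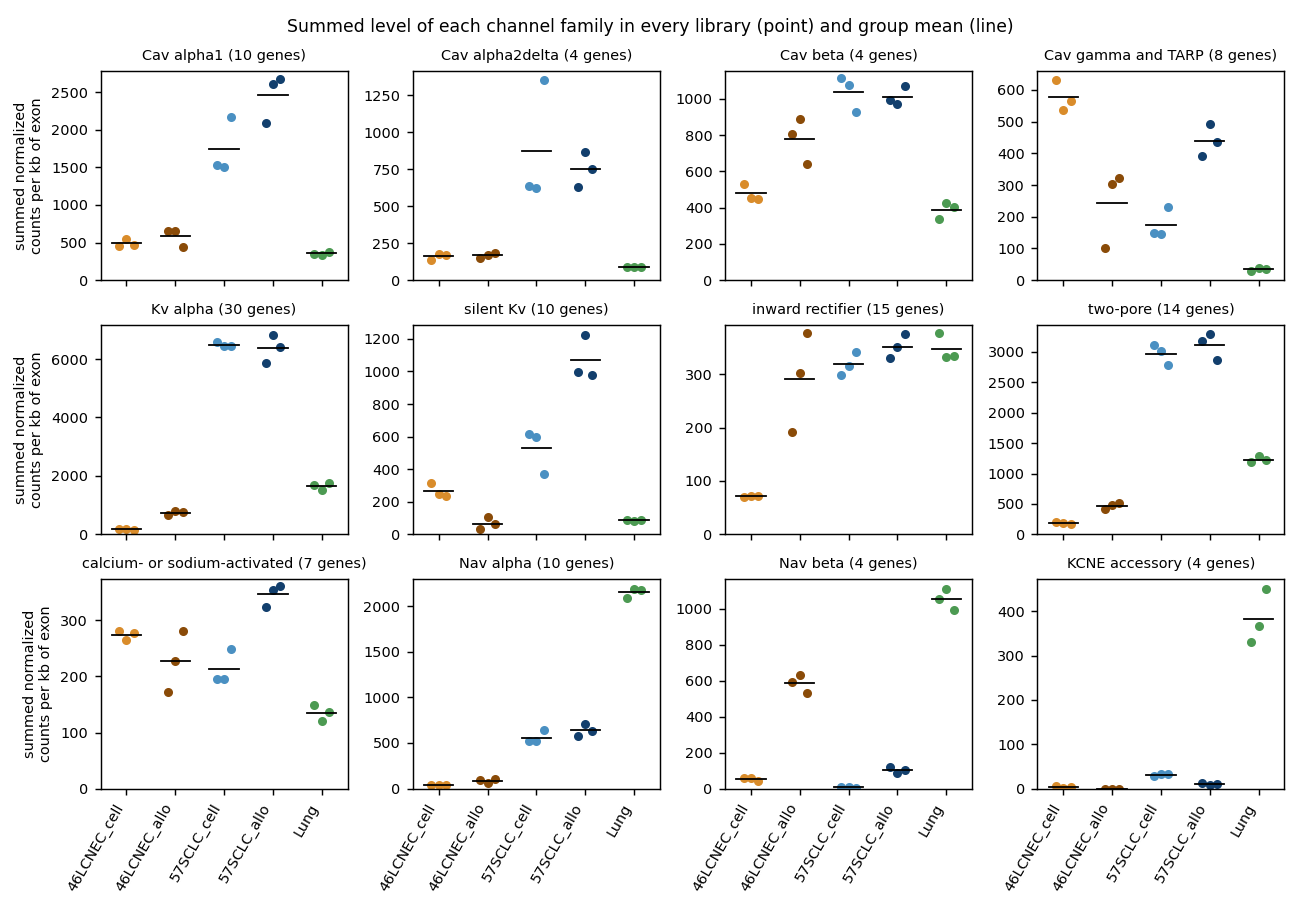
Summed level of each channel family in normalized counts per kb of exon (vertical axis, a scale of its own in each panel, starting at 0) in the 3 libraries of each group (points) with the group mean (line). The Kv alpha panel shows the 57SCLC libraries between 5879.12 and 6837.37 and the 46LCNEC libraries between 148.466 and 787.925, while the Nav alpha, Nav beta and KCNE panels are highest in Lung.

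The most abundant channel genes per kb of exon differed between the groups. In 57SCLC_cell they were led by Kcnh6 (1545 normalized counts per kb), Kcnk1 (1142), Kcnk16 (1125), Cacnb3 (969.6) and Kcnh2 (938), and the 10 highest also included Kcnc1, Cacna1h, Kcnh3 and Cacna1a. In 57SCLC_allo, 8 of the same 10 genes were again among the 10 highest, joined by Kcnf1. In 46LCNEC_cell the first were Cacnb3 (413), Cacna1c (382), Cacng7 (347), Kcnf1 (254) and Kcnn4 (234), and in 46LCNEC_allo Cacnb3 (627), Kcnh2 (294) and Cacna1c (231) were among the highest. In Lung they included Scn7a (2006), Scn3b (798) and Kcne2 (383). Of the 10 leading genes, 7 were potassium channel genes in 57SCLC_cell and 4 in 46LCNEC_cell, where the other 6 were calcium channel genes. Only Cacnb3, which encodes a beta subunit that brings calcium channels to the membrane, was among the first 5 of both cultured lines.

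The first comparison was between the cultured lines. Of the 120 genes, 80 passed the filter on low values (3 or more of the 6 libraries reaching 10 normalized counts), 57 were called higher in 57SCLC_cell and 15 lower, and 8 were not called. A call is an adjusted p (limma, Benjamini-Hochberg over all genes tested) of at most 0.01 together with a log2 fold change no smaller than 1 in either direction. Fold changes are differences of log2(normalized count + 1), which understate the change of genes with low values. Among all 16920 genes tested, 23.9% were called higher and 22.2% lower, against 71.2% and 18.8% of the 80 channel genes tested (47.5% and 12.5% of the 120). The median log2 fold change over the channel genes tested was 3.89, and over all genes tested 0.00028. That median and the shares of those tested describe only the genes that passed. A gene near 0 in one line passes only by being high in the other. Calcium channels gave 13 higher and 4 lower of 26, sodium channels 7 higher and 2 lower of 14, and potassium channels 37 higher and 9 lower of 80.

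The calcium channel pores Cacna1a, Cacna1b and Cacna1h were much higher in the SCLC line. Cacna1a, the pore of the P/Q-type channel, had 9397, 9024 and 13995 normalized counts in the 3 flasks of 57SCLC_cell and 252, 214 and 235 in the dishes of 46LCNEC_cell (log2 fold change 5.497 ± 0.17 (SE), adjusted p = 4.23e-08). Cacna1b, the pore of the N-type channel, had 2577, 2649 and 2820.5 against 17.8, 16.6 and 14.6 (log2 fold change 7.28 ± 0.13, adjusted p = 5.07e-09). Cacna1h, a T-type channel that opens at low voltage, had 7023, 6882 and 8659 against 352, 317 and 336 (log2 fold change 4.48 ± 0.10, adjusted p = 1.33e-08). In all 3 genes every flask lay far above every dish. In GRCm39 Cacna1a is at chr8:85065224-85367997, Cacna1b at chr2:24493899-24653221 and Cacna1h at chr17:25593259-25652764, and reads were counted over the exons of each gene. In the LCNEC line the leading pore was Cacna1c, of the L-type channel, with 7491, 9859 and 8292. Its values in 57SCLC_cell were 2917, 2941 and 7935, and it was not called (log2 fold change -1.06 ± 0.36, adjusted p = 0.0278). Flask C lay within the range of the dishes and flasks A and B below it. Cacna1g, another T-type channel, was the only pore-forming calcium channel gene called lower in 57SCLC_cell, with 52.9, 52.5 and 64.1 against 789, 692 and 579.7 (log2 fold change -3.58 ± 0.16, adjusted p = 3.34e-07).

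The same calcium channel pores differed between the allografts. Cacna1a had 13968, 16383 and 17591 normalized counts in 57SCLC_allo and 1050.3, 470.5 and 1458 in 46LCNEC_allo (log2 fold change 4.15 ± 0.39, adjusted p = 0.000184), and Cacna1b had 2107, 3717 and 3045 against 33.1, 41.0 and 37.6 (log2 fold change 6.24 ± 0.24, adjusted p = 8.46e-06). Cacna1h had 10480.1, 12186 and 13313 against 158, 2599 and 366, with tumor 319 far above the other LCNEC tumors, and its call (log2 fold change 4.49 ± 0.93, adjusted p = 0.00611) held in 1 of 6 fits that left out 1 library. The ratio of the means was 11.52 with all tumors and 45.8 without tumor 319. Cacna1g, with 2167, 2173 and 977 in 46LCNEC_allo and 608, 616 and 507 in 57SCLC_allo, was called lower in 57SCLC_allo (log2 fold change -1.53 ± 0.32, adjusted p = 0.00611), a call that held in 1 of 6 such fits (adjusted p from 0.000132 to 0.028). The pore-forming gene Cacna1d, an L-type channel of pacemaker and endocrine cells, was near 0 in both lines in culture, with 3.75, 2.21 and 1.54 and 1.64, 0 and 0.521. It had 544, 357 and 410.4 in 46LCNEC_allo and 90.96, 83.5 and 137 in 57SCLC_allo. Cacna1e, of the R-type channel, had 163, 205 and 124 in 57SCLC_allo and 26.5, 5.26 and 107 in 46LCNEC_allo, where tumor 321 stood above the others, and it was not called between the allografts (adjusted p = 0.0555). Cacna1e had at most 49.0 in any dish or flask. It was called higher in 57SCLC_cell than in 46LCNEC_cell, as was Cacna1f, both in 6 of 6 fits that left out 1 library. Cacna1e was also called higher in 57SCLC_allo than in 57SCLC_cell (log2 fold change 2.60 ± 0.40, adjusted p = 0.0012). Cacna1f, Cacna1i and Cacna1s reached at most 29.7, 21.4 and 3.31 normalized counts in any dish or flask, and at most 22.1, 45.5 and 10.5 in any tumor. Cacna1c was not called between the allografts (log2 fold change -0.53 ± 0.31, adjusted p = 0.185).

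**Figure D2:**
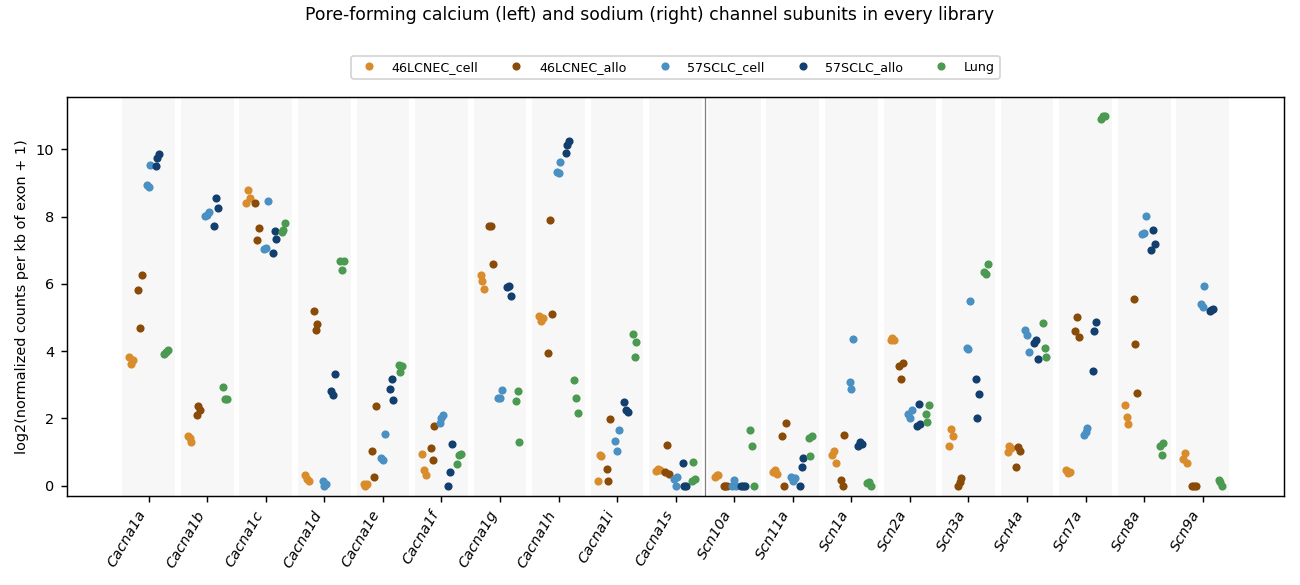
Pore-forming subunits of calcium channels (left of the line) and sodium channels (right) in every library, as log2(normalized counts per kb of exon + 1), with 3 points per group. Cacna1a, Cacna1b, Cacna1h, Scn8a and Scn9a show both 57SCLC groups above all other libraries, and Scn7a and Scn3a show Lung on top.

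Accessory subunits of the calcium channel split between the lines. All 4 alpha2delta genes, whose products raise the number of channels at the membrane, were called higher in 57SCLC_cell and in 57SCLC_allo. Cacna2d1 had 6527, 6354 and 9913 normalized counts in 57SCLC_cell and 2769, 3534 and 3178 in 46LCNEC_cell (log2 fold change 1.24 ± 0.18, adjusted p = 0.00032). Cacna2d2 had 827, 829 and 1482 against 0, 3.31 and 0.769, and Cacna2d3 2122, 2099 and 7016 against 104, 184 and 245. Flask C held over 3 times the Cacna2d3 level of flasks A and B, and the ratio of the means fell from 21.1 to 11.9 without it. Cacnb3 was the main beta subunit of both lines, with 5327, 5099 and 4249 in 57SCLC_cell and 2281, 1993 and 1983 in 46LCNEC_cell (log2 fold change 1.23 ± 0.11, adjusted p = 1.46e-05). Cacnb2 was called lower in 57SCLC_cell (24.0, 43.4 and 55.2 against 179, 228 and 201) and in 57SCLC_allo (2.39, 9.91 and 13.6 against 270.2, 576 and 485), and Cacnb1 was called in neither comparison.

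The gamma subunit family gave the clearest exchange of members. Several of its products, the TARPs, mainly move AMPA-type glutamate receptors to synapses rather than serving calcium channels. Cacng7 had 1536, 1245 and 1342 normalized counts in 46LCNEC_cell and 34.4, 27.7 and 39.1 in 57SCLC_cell (log2 fold change -5.32 ± 0.16, adjusted p = 4.35e-08). Cacng8 had 705, 656 and 653 in 46LCNEC_cell and only 1 read over all 3 flasks of 57SCLC_cell (ratio of the means 3630.2 (95% counting interval 652 to 143387)). The reverse order was seen for Cacng4, with 459, 457 and 777 in 57SCLC_cell and 1.88, 2.21 and 4.61 in 46LCNEC_cell, and for Cacng5, with 101, 97.1 and 103 against 0.938, 0 and 0. In the LCNEC allografts Cacng7 was at 169.5, 312 and 743, Cacng8 at 78.1, 21.1 and 125 and Cacng4 at 84.8, 778 and 252 normalized counts. The fall of Cacng8 from cells to allografts was called (log2 fold change -3.48 ± 0.58, adjusted p = 0.00224) and the lower level of Cacng7 was not (log2 fold change -2.01 ± 0.47, adjusted p = 0.0102). The call for Cacng8 held in 3 of 6 fits that left out 1 library (adjusted p from 0.000152 to 0.0144).

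Of the 10 sodium channel pores, 7 were called higher in 57SCLC_cell and 1, Scn2a, was called lower. Scn8a, a channel of nodes of Ranvier and axon initial segments, had 2775, 2845 and 4043 normalized counts in 57SCLC_cell and 66.6, 48.6 and 40.7 in 46LCNEC_cell (log2 fold change 5.93 ± 0.21, adjusted p = 1.00e-07). Scn9a, known from pain-sensing neurons and neuroendocrine cells, had 520.4, 494 and 769.6 against 9.38, 12.1 and 7.69 (log2 fold change 5.79 ± 0.24, adjusted p = 2.33e-07). Scn1a, Scn3a, Scn4a and Scn7a were also called higher in 57SCLC_cell, at 72.4 to 228 normalized counts for Scn1a, 210.5 to 583 for Scn3a, 126 to 202 for Scn4a and 13.6 to 17.2 for Scn7a. For Scn1a and Scn3a flask C was again the highest, and the ratios of the means fell from 13.2 to 8.10 and from 14.3 to 9.05 without it.

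Scn2a, a sodium channel of central neurons, went the other way from Scn8a and Scn9a, with 44.2, 39.2 and 48.5 normalized counts in 57SCLC_cell and 247, 262 and 246 in 46LCNEC_cell (log2 fold change -2.49 ± 0.15, adjusted p = 1.95e-06). It was lower in every flask than in every dish. In the allografts Scn2a was again called lower in 57SCLC_allo, with 31.1, 56.6 and 32.9 against 139, 103 and 149 (adjusted p = 0.00481, called in 2 of 6 fits that left out 1 library). The higher pores of the SCLC line were found there too. Scn9a had 452, 460.1 and 474 in 57SCLC_allo and was at 0 in all 3 LCNEC tumors, so its level was at least 133-fold higher, taking 3 reads per library as the floor. Scn8a had 2018, 3056 and 2293 against 717, 278 and 90.7. The spread between LCNEC tumors was wide, with tumor 312 highest, and the call (adjusted p = 0.00697) held in 2 of 6 fits that left out 1 library. Without that tumor the ratio of the means was 13.3 in place of 6.79.

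Potassium channel genes showed the largest differences between the lines. Kcnh6, which encodes an ERG-type channel of excitable cells, had 7367, 7664 and 6339 normalized counts in 57SCLC_cell and 5.63, 7.73 and 9.23 in 46LCNEC_cell, a ratio of the means of 946 (log2 fold change 9.72 ± 0.18, adjusted p = 5.99e-09). Kcnc1, a fast Kv3 channel that allows rapid firing, had 9374, 8756 and 6127 against 4.69, 9.93 and 3.08 (log2 fold change 10.30 ± 0.35, adjusted p = 7.51e-08). Both were abundant in every flask and low in the dishes.

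The further genes with the largest increases covered several potassium channel families. Kcnb2, a Kv2 delayed rectifier of neurons and endocrine cells, had 3893, 3797 and 7878 normalized counts in 57SCLC_cell against 0.938, 0 and 1.54 in 46LCNEC_cell. The two-pore channels Kcnk1 and Kcnk16, which carry background potassium current, had 2981, 2859 and 2835 and 2942, 2926 and 2157 in 57SCLC_cell, and 1 read each in all 3 dishes of 46LCNEC_cell. Their ratios of the means were 9463 (95% counting interval 1698 to 373782) and 8755 (95% counting interval 1571 to 345789). Kcnh8 and Kcnc4 were at 0 in all 3 dishes and had 1063, 1024 and 2106 and 261, 282 and 269.9 in 57SCLC_cell, at least 497-fold and 96.4-fold higher. Kcnh3, an ELK-type channel of the forebrain, had 5353, 5269 and 4292 against 12.2, 6.62 and 10.8. Kcnj1, an inward rectifier known from kidney tubules, had 469, 469.8 and 514 against 1 read. Kcnh2, the ERG channel that repolarizes the heart, was expressed in both lines and differed less, with 5119, 4947 and 4525 against 247, 226 and 161 (log2 fold change 4.54 ± 0.16, adjusted p = 7.73e-08).

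**Figure D3:**
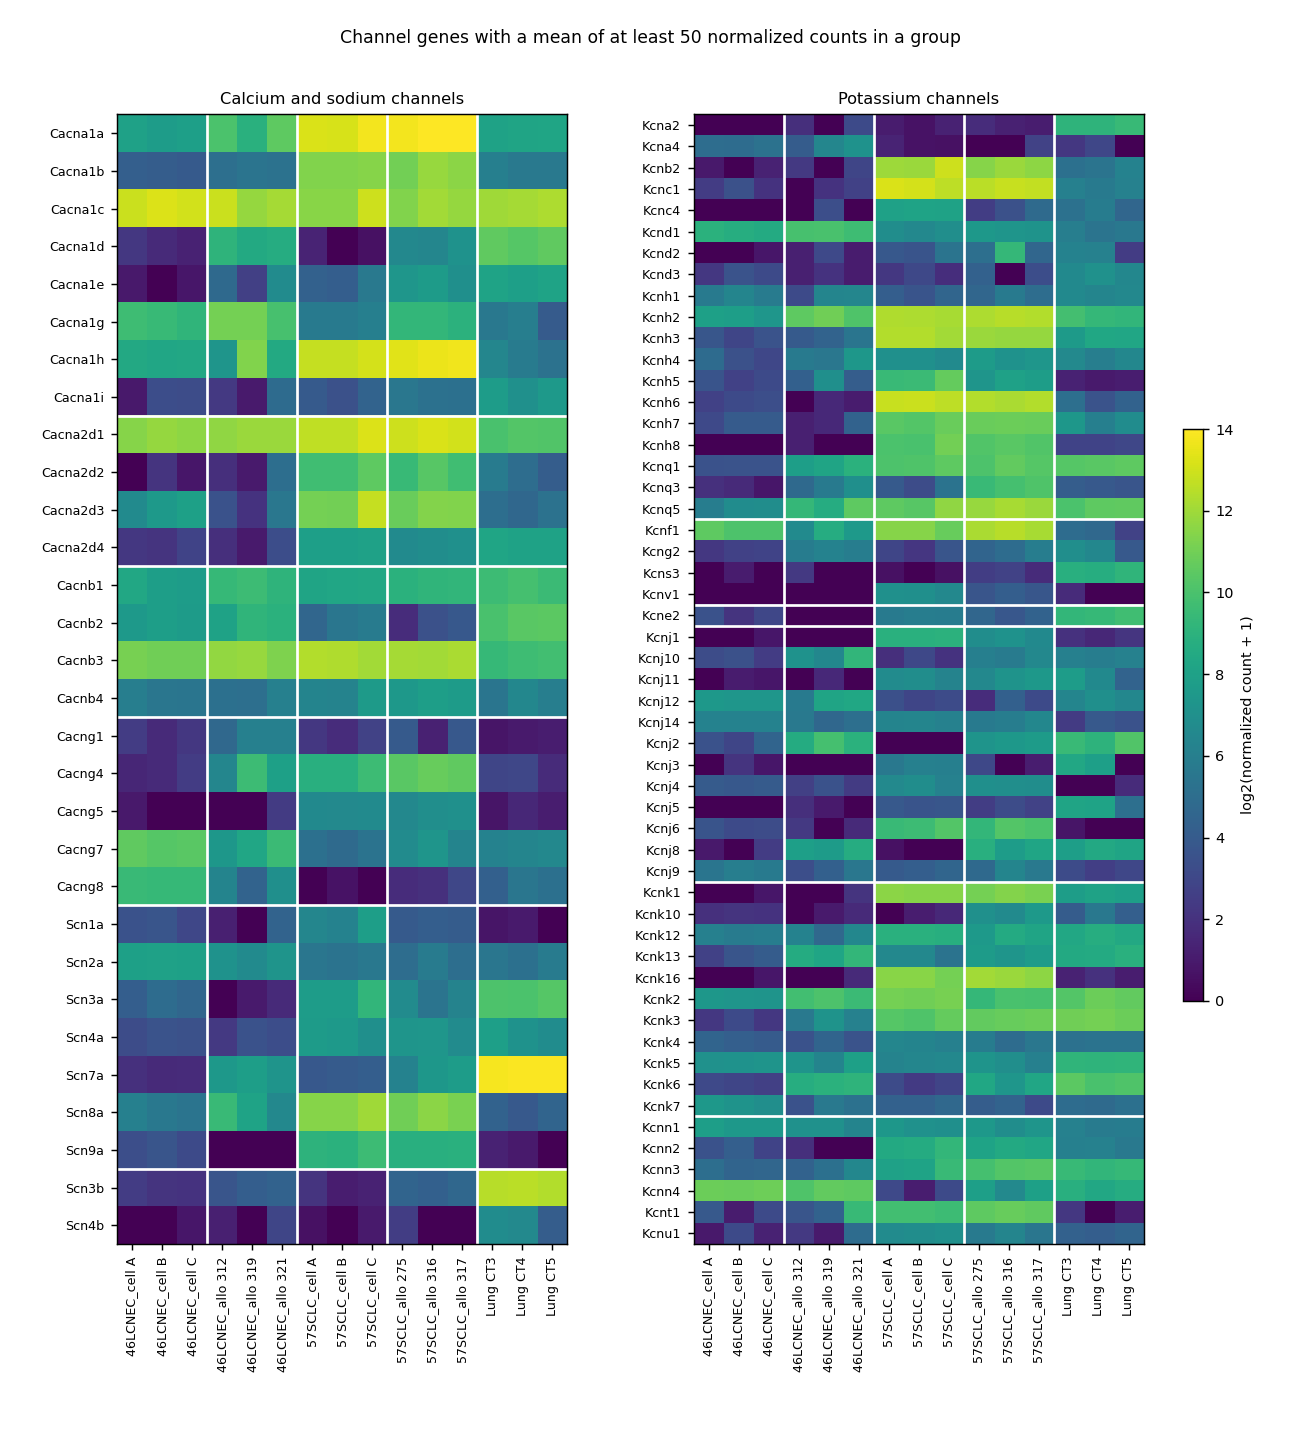
Level of 83 channel genes with a mean of at least 50 normalized counts in at least 1 group (rows, by family), as log2(normalized count + 1) by color, in the 15 libraries (columns; white lines separate groups and families). The 57SCLC columns are bright for most Kcnh rows where the 46LCNEC columns are dark, and Cacng7, Cacng8 and Kcnn4 show the reverse in the cells.

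Further potassium channels added to the difference between the lines. Kcnh7, the third ERG-type channel, had 1352, 1240.0 and 1787 normalized counts in 57SCLC_cell and 7.51, 15.5 and 15.4 in 46LCNEC_cell. The small-conductance calcium-activated channels Kcnn2 and Kcnn3, which slow firing after a spike, had 365, 393 and 606 and 262, 279.8 and 713 in 57SCLC_cell, against 10.3, 17.7 and 6.15 and 31.9, 22.1 and 23.8, while their relative Kcnn1 was not called (172, 135 and 126 against 226, 174 and 177). The stretch-sensitive two-pore channel Kcnk2 had 2127, 1962 and 2242 against 172, 158 and 151, and Kcnk12 472, 476 and 443 against 66.6, 56.3 and 59.97. Kcnh7, Kcnn2, Kcnn3 and Kcnk12 were called higher in 57SCLC_allo than in 46LCNEC_allo too (Kcnk12 in 2 of 6 fits that left out 1 library), whereas Kcnk2 was not, with 649, 1026 and 984 in 57SCLC_allo and 870.2, 1108 and 738 in 46LCNEC_allo. Kcnj14 and Kcnk5 were not called in either comparison between the lines.

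The allografts of the lines were compared next. Of the 120 channel genes, 87 passed the filter, 44 were called higher in 57SCLC_allo and 12 lower. That is 50.6% and 13.8% of those tested (36.7% and 10% of the 120), while 16.1% and 14.2% of all 17502 genes tested were called. Of the 57 genes called higher in the SCLC cells, 40 (70.2%) were also called higher in the SCLC allografts, which is 90.9% of the 44. Of the 15 called lower, 9 were called lower in the allografts too, and none was called in opposite directions. These overlaps were not computed over all genes, so they are not read as particular to channel genes. Kcnh6 had 5288, 4747 and 5322 normalized counts in 57SCLC_allo against 0, 2.11 and 1.11 in 46LCNEC_allo, and Kcnk16 4299, 3865 and 3168 against 0, 0 and 2.21. Kcnc1 had 5927, 7292 and 6828 against 0, 3.16 and 5.53, Kcnb2 2801, 3784 and 3129 against 3.97, 0 and 6.64 and Kcnk1 2123, 2756 and 2367 against 0, 0 and 3.32. These 5 genes lay between 2123 and 7292 in the SCLC tumors and at 6.64 or less in the LCNEC tumors, with log2 fold changes from 9.90 to 11.42. Kcnt1, a sodium-activated potassium channel, had 1465, 1690.2 and 1516 against 11.9, 20.0 and 704, where tumor 321 stood apart, and it was not called (adjusted p = 0.0262).

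**Figure D4:**
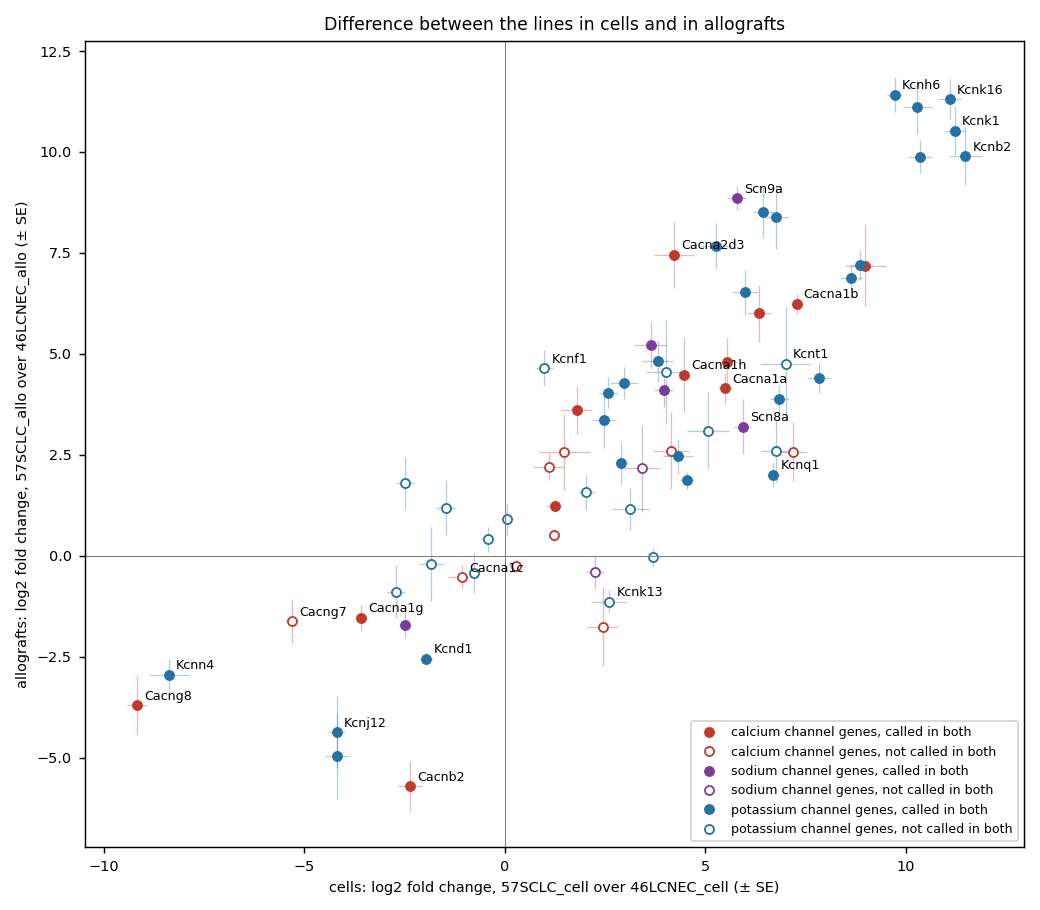
Log2 fold change of 57SCLC over 46LCNEC in the cells (horizontal axis) and in the allografts (vertical axis) for 70 of the channel genes tested in both, with standard errors. Filled points were called in both comparisons (43 genes) and open points were not. 49 genes lie in the upper right, 13 in the lower left and 8 have opposite signs.

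Fewer potassium channel genes were higher in the LCNEC line. Kcnn4, the intermediate-conductance calcium-activated channel of blood cells and epithelia, had 1846, 1784 and 1899 normalized counts in 46LCNEC_cell and 7.64, 1.206 and 7.82 in 57SCLC_cell (log2 fold change -8.38 ± 0.50, adjusted p = 1.66e-06). Kcnd1, a channel of the A-type current that delays firing, had 492, 426 and 371 against 117, 93.5 and 118 (log2 fold change -1.96 ± 0.16, adjusted p = 1.08e-05), and Kcnj12, an inward rectifier, 178, 162 and 159.9 against 9.82, 6.63 and 8.34 (log2 fold change -4.19 ± 0.21, adjusted p = 5.47e-07). Kcnk7, Kcnh1, Kcnj9, Kcng1, Kcnt2 and Kcna4 were also called lower in 57SCLC_cell, at means of 18.8 to 148 normalized counts in 46LCNEC_cell. Kcnn4, Kcnd1 and Kcnj12 were called lower in 57SCLC_allo than in 46LCNEC_allo too, Kcnj12 in 2 of 6 fits that left out 1 library. Kcnn4 had 1131, 1570.4 and 1466 in 46LCNEC_allo and 242, 94.8 and 245 in 57SCLC_allo (log2 fold change -2.94 ± 0.38, adjusted p = 0.000772), so the SCLC tumors held far more of it than the SCLC flasks. Kcnf1, a silent subunit that changes other Kv channels and forms none alone, was high in both lines in culture, with 1451, 1107 and 1089 in 46LCNEC_cell and 2859, 2776 and 1715 in 57SCLC_cell, and was not called (log2 fold change 0.99 ± 0.21).

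Genes linked to the channels were taken from lists of calcium, sodium and potassium channel partners, related cation channels, and Rest with its cofactors. In the cells, 31 of the 66 genes on these lists were called higher in 57SCLC_cell and 13 lower, with 57 tested. That is 47% and 19.7% of the 66, tested or not, where 23.9% and 22.2% of all genes tested were called. In the allografts 25 were called higher and 12 lower, or 37.9% and 18.2% of the 66, where the shares of all genes tested were 16.1% and 14.2%. For potassium channel partners the counts in the cells were 12 higher and 2 lower of 21, for sodium channel partners 6 and 3 of 11, and for calcium channel partners 6 and 6 of 15. Related cation channels gave 7 and 1 of 11, and Rest with its cofactors 0 and 1 of 8. Nfasc, which anchors sodium channels at axon initial segments, had 7021, 7082 and 8048 normalized counts against 64.7, 61.8 and 55.4, and Fgf14, a modulator of sodium channels, 2941, 2768 and 3009.6 against 5.63, 12.1 and 9.23. Cabp1, a calcium sensor that regulates calcium channels, had 7972, 7963 and 6838 against 98.5, 103 and 104, and Rimbp2, which ties calcium channels to release sites, had 6422, 6379 and 8312 against 0 in all 3 dishes, at least 2504-fold higher. Of the partners that were higher in the LCNEC line, Stac2, which holds L-type channels at the membrane, had 2559, 2037 and 1987 in 46LCNEC_cell and 25.1, 26.5 and 34.9 in 57SCLC_cell. Rem1, a small GTPase that inhibits calcium channels, had 307, 306 and 212 and was at 0 in the 3 flasks, at least 165-fold lower. Among related cation channels, the pacemaker channel Hcn2 had 2331, 2076 and 2459 against 77.9, 71.7 and 80.0.

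Rest, the repressor that binds the RE1 element and silences many neuronal genes outside the nervous system, was among the genes with the largest differences. It had 1947, 1878 and 1874 normalized counts in 46LCNEC_cell and 6.55, 9.05 and 5.73 in 57SCLC_cell (log2 fold change -7.89 ± 0.18, adjusted p = 1.29e-08), with 3111, 3432 and 2429 in 46LCNEC_allo, 201, 160.0 and 255 in 57SCLC_allo and 1249, 1181 and 1238 in Lung. All SCLC libraries lay below all others. Of the 8 genes on the list of Rest and its cofactors, Rest was the only one called in the comparison of the cells.

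Promoter sequences from RefSeq (GRCm38.p6) were searched for letters of the RE1 element. The table covers 250 bases before to 50 bases after each start site and holds 113 promoters of 86 of the 120 channel genes. The left arm, TTCAGCACC, was searched on both strands and occurred in 122 of the 32851 promoters of all genes (0.371%) and in 1 channel gene, Kcnh6. The right arm, GGACAGCGC, occurred in 133 promoters (0.405%) and in 1 channel gene, Kcnj4. The shorter cores CAGCACC and GGACAGC, which overlap these arms, stood within 12 bases of each other on the same strand in 20 promoters (0.0609%), and Kcnh6 was the only channel gene among them, with 7 bases between the cores. The Kcnh6 promoter lacked the full right arm and that of Kcnj4 the left, so neither held both arms. The sequences show the 250 bases before the start site of the 2 genes, 5′ to 3′, with the RE1 letters in capitals. Kcnh6 is at chr11:106007898-106008147 on the plus strand and Kcnj4 at chr15:79505242-79505491 on the minus strand.
Kcnh6: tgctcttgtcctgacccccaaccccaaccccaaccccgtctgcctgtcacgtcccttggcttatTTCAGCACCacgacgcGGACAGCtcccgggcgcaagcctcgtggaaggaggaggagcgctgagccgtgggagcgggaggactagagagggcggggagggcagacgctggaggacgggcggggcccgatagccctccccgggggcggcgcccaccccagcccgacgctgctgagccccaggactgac
Kcnj4: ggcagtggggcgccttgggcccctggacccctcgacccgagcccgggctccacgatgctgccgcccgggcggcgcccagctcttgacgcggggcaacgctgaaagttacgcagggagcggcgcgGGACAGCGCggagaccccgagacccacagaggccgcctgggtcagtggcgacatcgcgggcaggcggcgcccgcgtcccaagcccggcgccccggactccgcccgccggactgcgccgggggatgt
Both genes were called higher in 57SCLC_cell, and Kcnj4 had 95.5, 115 and 70.3 normalized counts there against 15.01, 13.2 and 15.4 in 46LCNEC_cell. Of the channel genes with a promoter, 38 were called higher in 57SCLC_cell and 11 lower. The direction of the 2 genes is therefore not read as linked to their matches. A match describes the letters and does not show a bound site, and the other promoters without a match may hold the element elsewhere.

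The GC box GGGCGG, a frequent letter pattern of promoters rich in CpG, was found on either strand in 50 of the 86 channel genes (58.1%) and in 35.7% of all promoters, where the first share counts genes with a match in any of their promoters and the second counts promoters. It occurred in 25 of the 38 channel genes with a promoter that were called higher in 57SCLC_cell and in 6 of the 11 called lower. It is shown in capitals, as GGGCGG or its reverse complement, for Kcnc1 and Cacna1b, which were near 0 and low in the LCNEC line, in this order, and for Kcnn4, which was near 0 in the SCLC flasks. Kcnc1 is at chr7:46396218-46396467 (plus strand), Cacna1b at chr2:24763153-24763402 (minus strand) and Kcnn4 at chr7:24370013-24370262 (plus strand).
Kcnc1: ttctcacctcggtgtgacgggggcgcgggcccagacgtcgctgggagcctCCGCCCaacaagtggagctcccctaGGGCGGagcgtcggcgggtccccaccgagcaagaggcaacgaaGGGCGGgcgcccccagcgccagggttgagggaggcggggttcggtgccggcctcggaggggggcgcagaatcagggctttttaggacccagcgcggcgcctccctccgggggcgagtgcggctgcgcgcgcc
Cacna1b: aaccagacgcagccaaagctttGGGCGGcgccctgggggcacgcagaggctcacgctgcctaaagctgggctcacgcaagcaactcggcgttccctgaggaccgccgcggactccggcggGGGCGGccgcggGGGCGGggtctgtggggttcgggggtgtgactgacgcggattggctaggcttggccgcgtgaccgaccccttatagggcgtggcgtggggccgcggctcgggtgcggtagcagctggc
Kcnn4: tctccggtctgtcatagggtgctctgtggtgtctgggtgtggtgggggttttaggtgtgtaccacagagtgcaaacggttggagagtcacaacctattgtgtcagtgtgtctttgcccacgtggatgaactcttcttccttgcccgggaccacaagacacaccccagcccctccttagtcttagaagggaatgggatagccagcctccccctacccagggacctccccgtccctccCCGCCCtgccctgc
The Kcnc1 and Cacna1b stretches each hold 3 GC boxes and that of Kcnn4 holds 1, so the letter pattern was present in genes of either direction.

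The next comparison was between allografts and cultured cells of the same line. In 57SCLC, 21 of the 120 channel genes were called higher in the allografts and 10 lower (86 tested). That is 24.4% and 11.6% of those tested (17.5% and 8.33% of the 120), where 14.4% and 2.29% of all 17078 genes tested were called. In 46LCNEC, 24 were called higher and 6 lower (62 tested). That is 38.7% and 9.68% of those tested (20% and 5% of the 120), where 14.4% and 8.45% of all 16375 genes tested were called. The genes called higher in both lines were 13 in number, 61.9% of the 21 and 54.2% of the 24, and included Cacna1d, Cacng4, Kcng2, Kcnj2, Kcnj8, Kcnj10, Kcnk6, Kcnk13, Kcnq3, Scn3b and Scn7a. Scn3a was the only gene called lower in both. Of these calls, those for Kcng2 (1 of 6 fits that left out 1 library), Kcnk13 (1 of 6) and Scn3a (1 of 6) were lost in some fits in 57SCLC, and those for Scn3b (1 of 6) and Scn3a (4 of 6) in 46LCNEC. The overlap of calls between the lines was not computed over all genes, so it is not read as particular to channel genes. In a tumor, more cells of a type and more RNA per cell cannot be told apart.

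Several of the genes gained in both allografts were close to 0 in both cultures. Kcnj8, the pore of the ATP-sensitive channel of pericytes and smooth muscle, had 0.938, 0 and 4.61 normalized counts in 46LCNEC_cell and 242, 203 and 407 in 46LCNEC_allo (log2 fold change 6.94 ± 0.64, adjusted p = 0.000175). In the SCLC line it went from 0.545, 0 and 0 to 452, 211 and 304 (log2 fold change 8.06 ± 0.37, adjusted p = 1.27e-06). Kcnj2, an inward rectifier of muscle and endothelium, went from 10.3, 6.62 and 21.5 to 388, 931 and 483 in 46LCNEC and from 0 in all flasks to 148, 174 and 205 in 57SCLC, at least 105-fold higher. Kcnk6, a two-pore channel, went from 7.51, 6.62 and 5.38 to 424, 493 and 541 and from 8.18, 4.22 and 6.25 to 321, 164 and 309. Scn7a, a sodium-sensing relative of the voltage-gated channels, went from 2.81, 2.21 and 2.31 to 174, 231 and 150.5 and from 13.6, 15.1 and 17.2 to 71.8, 171 and 209.9. All of these were also present in Lung, Kcnj8 with 230.2, 347 and 293 and Kcnk6 with 1396, 1008 and 1132.

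Summed markers of smooth muscle and pericytes, fibroblasts, endothelium and macrophages were also higher in the allografts than in the cells. Some lists were already high in culture. Of the 5 fibroblast markers, 4 were above 3 reads in every dish of 46LCNEC_cell, as were 3 of the 5 endothelial markers in every flask of 57SCLC_cell. Cdh5, given below, was among the 2 endothelial markers at or under 3 reads in those flasks. The 5 smooth muscle and pericyte markers summed to 580.525 to 738.046 normalized counts in 46LCNEC_cell and 173.092 to 215.195 in 57SCLC_cell, against 4334.31 to 8119.18 in 46LCNEC_allo and 4647.45 to 6548.79 in 57SCLC_allo, and all 5 were above 3 reads in every tumor. Rgs5, a pericyte marker, was at 0 in the 3 flasks of 57SCLC_cell and at 2581, 1971 and 2909.6 in its allografts. The 5 fibroblast markers summed to 21.7118 to 26.7293 in 57SCLC_cell and 23711.4 to 35969.1 in 57SCLC_allo, with Lum at 0 in the flasks, and to 29197.4 to 32077.4 in 46LCNEC_cell and 283706 to 589941 in 46LCNEC_allo. The 5 endothelial markers summed to 4825.87 to 8341.7 in 46LCNEC_allo against 123.777 to 174.378 in its cells, and to 9857.66 to 10629.8 in 57SCLC_allo against 7141.63 to 7813.19, and the 5 macrophage markers to 21688.5 to 43369.6 against 331.098 to 385.169 and to 9317.53 to 19763.2 against 290.698 to 323.479. The endothelial marker Cdh5 went from 0.938, 3.31 and 0.769 to 3735, 2143 and 3153 in 46LCNEC and from 1.09, 0.603 and 1.56 to 1204, 927 and 1197 in 57SCLC, and the macrophage marker Csf1r from 21.6, 30.9 and 51.5 to 6801, 4867 and 7817 and from 2.18, 4.82 and 7.29 to 1956, 1055 and 1718. Their part in the gain of the channel genes was not tested.

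**Figure D5:**
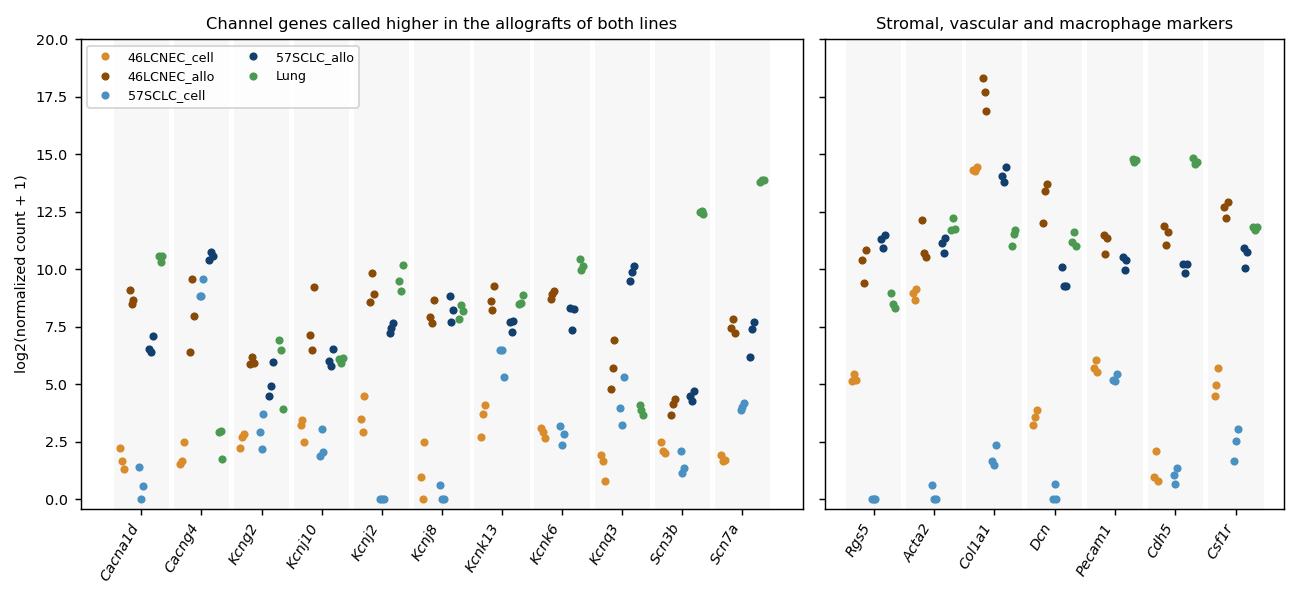
11 of the 13 channel genes called higher in the allografts of both lines (left) and 7 markers of pericytes, smooth muscle, fibroblasts, endothelium and macrophages (right), as log2(normalized count + 1) in every library, 3 points per group. Kcnj2, Kcnj8, Cacna1d and Kcnk6 are near the bottom in both cell groups and higher in all 6 allografts, as are Cdh5 and Csf1r.

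Kcnq3, a pore of the M current that dampens repetitive firing, was also called higher in the allografts of both lines and went from 14.7, 8.44 and 39.1 to 723, 949.9 and 1140.5 in 57SCLC and from 2.81, 2.21 and 0.769 to 26.5, 51.6 and 122.8 in 46LCNEC, with a mean of 938 ± 209 (SD, n = 3) in the SCLC tumors. Other genes were called higher in the allografts of one line. Kcnk10, a two-pore channel opened by stretch and lipids, had 0, 1.206 and 2.08 normalized counts in 57SCLC_cell and 132, 102 and 185 in 57SCLC_allo (log2 fold change 6.17 ± 0.46, adjusted p = 1.82e-05), and 2.81, 3.31 and 3.08 and 0, 1.05 and 2.21 in the LCNEC groups. Kcnn4 was gained in 57SCLC_allo (log2 fold change 5.02 ± 0.61, adjusted p = 0.000304), as was Cacna1g, with 608, 616 and 507 against 52.9, 52.5 and 64.1 (log2 fold change 3.33 ± 0.16, adjusted p = 1.66e-06). In 46LCNEC_allo, Kcnq1, a channel of heart and secretory epithelia, went from 10.3, 11.04 and 10.8 to 233, 286 and 500.0 (log2 fold change 4.79 ± 0.33, adjusted p = 4.58e-05), and Kcnk3, an acid-sensitive two-pore channel, from 3.75, 7.73 and 3.84 to 49.0, 145 and 70.8 (adjusted p = 0.000753). Exons of other genes on either strand cover 23.6% of the Kcnq1 exon bases, mostly those of Kcnq1ot1, and the strand setting of the counting is not stated in the sources used here. The same limit holds for other genes named here, among them Kcna6 (39.7%), Kcng2 (26.1%), Kcnj3 (22.6%) and Kcnh7 (20.55%). Kcna5, a Kv1 channel of smooth muscle and heart, was at 0 in the dishes and at 67.5, 49.5 and 25.4 in the LCNEC tumors.

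Losses were fewer. In 57SCLC, Kcnc4 fell from 261, 282 and 269.9 to 4.79, 9.91 and 27.2 normalized counts (log2 fold change -4.49 ± 0.51, adjusted p = 0.000202), Kcnv1, a silent subunit, from 131, 122 and 92.7 to 11.97, 17.0 and 12.5 (adjusted p = 4.02e-05), and Kcnj1 from 469, 469.8 and 514 to 117, 139 and 99.9 (adjusted p = 2.07e-05). Every tumor lay below every flask for these 3 genes. The inward rectifier Kcnj3, the atrial subunit of the channel opened by acetylcholine, fell from 48.5, 68.8 and 64.6 to 7.18, 0 and 1.13 (adjusted p = 0.00115). In 46LCNEC the 6 calls were Cacna2d3, Cacng8, Kcnf1, Kcng1, Kcnk7 and Scn3a. Kcnf1 went from 1451, 1107 and 1089 to 105, 401 and 189 (log2 fold change -2.59 ± 0.44, adjusted p = 0.00246). None of these 6 calls held in every fit that left out 1 library, and no channel gene was called lower in the fit without dish B or in that without dish C of 46LCNEC_cell (1 without dish A, and 10 without tumor 321).

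The change from cells to allografts itself differed between the lines for some genes. In a model of both lines with an interaction term (12 libraries), 92 channel genes were tested, 9 changed more toward higher values in 57SCLC and 15 more toward higher values in 46LCNEC, or 7.5% and 12.5% of the 120. Of the 92 tested that is 9.78% and 16.3%, and of all 18440 genes tested 10.8% and 6.78% were called. Kcnk10 had the largest positive term (7.28 ± 0.73 on the log2 scale, adjusted p = 1.44e-05) and Kcnc4 the largest negative one (-5.62 ± 1.15, adjusted p = 0.00266). Kcnk10 was close to the floor in both 46LCNEC groups. Kcnc4 had no reads in the 46LCNEC cells, so a fall like that in 57SCLC could not be seen in that line.

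Normal lung was compared with each allograft. Of the 120 channel genes, 45 were called higher in 57SCLC_allo than in Lung and 24 lower (93 tested). That is 48.4% and 25.8% of those tested (37.5% and 20% of the 120), beside 18.9% and 26.9% of all 18517 genes tested. In 46LCNEC_allo, 13 were called higher and 33 lower (83 tested). That is 15.7% and 39.8% of those tested (10.8% and 27.5% of the 120), beside 13.4% and 22.1% of all 18033 genes tested. Both comparisons share the 3 lung libraries. The genes highest over Lung in 57SCLC_allo included Kcnk16, with 4299, 3865 and 3168 normalized counts against 1.49, 2.99 and 1.17, and Kcnh6, with 33.6, 10.97 and 19.9 in Lung. Kcnj6, a subunit of inward rectifiers opened by G proteins, had 608, 1202 and 1059 against 1 read in Lung. For 46LCNEC_allo they included Cacna1g, with 2167, 2173 and 977 against 48.6, 62.8 and 15.2 (log2 fold change 5.48 ± 0.58, adjusted p = 0.000296), Kcnd1, with 974, 1019.9 and 814 against 62.8, 40.9 and 48.0 (log2 fold change 4.20 ± 0.22, adjusted p = 1.91e-05), and Cacnb3, with 3368, 3599 and 2524 against 656, 809 and 865 (log2 fold change 2.02 ± 0.17, adjusted p = 0.000122).

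Of the 14 sodium channel genes, 5 were called lower and 4 higher in 57SCLC_allo than in Lung, and 5 lower and 3 higher in 46LCNEC_allo than in Lung. Among those higher in the tumors was Scn8a, with 20.2, 13.96 and 22.2 normalized counts in Lung and the tumor values given above. Its call in 46LCNEC_allo was lost in 4 of 6 fits that left out 1 library. The ratio of the means there was 19.2 with all tumors and 9.81 without tumor 312. Scn7a had 14365, 15242 and 15216 normalized counts in Lung, the highest of any channel gene per kb in this tissue, and Scn3b, a beta subunit, 5835, 5889 and 5439, where the allografts of both lines held at most 24.97. Scn3a had 1089.8, 1040.2 and 1263 against 0, 1.05 and 2.21 in 46LCNEC_allo and 108, 41.1 and 74.9 in 57SCLC_allo. Kcna2, a Kv1 channel of axons, had 551, 558 and 679 and at most 7.74 in the allografts, and Kcns3, a silent subunit, 451, 428 and 572 and at most 5.66. Kcne2, a small accessory subunit, had 608, 672 and 826 in Lung, 23.9, 12.7 and 20.4 in 57SCLC_allo and 0 in the 3 LCNEC tumors, which puts Lung at least 202-fold higher than 46LCNEC_allo. For these 6 genes all lung libraries lay above all others. The lung libraries hold many cell types, with the 5 endothelial markers at 92265.2 to 106771 in sum and the alveolar markers given above, and the part of each in the channel levels was not tested.

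The 3 lungs were not alike for some channel genes, which are named here because their values were low in CT5. Kcnj3 had 339, 237 and 0 normalized counts in CT3, CT4 and CT5, in this order, and its partner in atrial muscle, Kcnj5, had 288, 279 and 33.9. In both, CT5 was far below the other lungs. Scn4b, a sodium channel beta subunit, had 112, 93.7 and 16.4, Kcnj11, a pore of ATP-sensitive channels, 211, 101 and 21.1, and Kcnd2, of the transient outward current, 71.8, 70.8 and 4.68. Of the 80 channel genes with at least 10 normalized counts in both CT3 and CT4, 8 were under 25% of their mean in CT5 and 15 under 50%, while the median was 95.4%. The 8 were Kcnj3, Scn10a, Kcnd2, Kcnj5, Kcng2, Kcnj11, Scn4b and Kcnf1. The rule asked for a level in CT3 and CT4 and not in CT5, which favors genes low in CT5. The share over all genes was not computed, so these counts only describe the genes listed. For other channel genes also known from heart muscle, CT5 was at varied shares of the mean of the other lungs. It was at 117% for Cacna1c, 113% for Kcnq1, 185% for Kcnj2, 76.8% for Kcnh2, 73.6% for Kcnd3 and 85.0% for Kcnj12. This list is not complete, and the T-type genes Cacna1g and Cacna1h were at 27.3% and 52.8%. Heart muscle markers were also lowest in CT5, with 5994, 3748 and 91.3 for Myh6, 2396, 1747 and 30.4 for Tnnt2 and 670.5, 785 and 5.85 for Myl7, and the 4 markers summed to between 129.938 and 9490.47. Their part in these channel levels was not tested. Kcnj5 (log2 fold change -6.18 ± 0.94, adjusted p = 0.00145) and Kcnj11 (-5.74 ± 0.91, adjusted p = 0.00177) were called lower in 46LCNEC_allo than in Lung with all 3 lungs, and the calls held in 6 of 6 and 5 of 6 fits that left out 1 library.

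Single tumors and flasks stood apart for some channel genes. Kcnd2 had 33.5, 629.9 and 23.8 normalized counts in 57SCLC_allo tumors 275, 316 and 317, so that 1 tumor held nearly all of it. In 46LCNEC_allo, tumor 321 had 704 of Kcnt1, the highest in its group, and tumor 319 had 2599 of Cacna1h and 778 of Cacng4. The T cell markers Cd3e, Cd3d, Trac and Cd2 summed to between 10.5253 and 517.728 in these tumors, with Cd3e at 3.97, 2.11 and 150.5 in tumors 312, 319 and 321. The part of other cells in these values was not tested. In 57SCLC_cell, flask C was the highest for Cacna1c, Cacna2d3, Kcnb2, Kcnh5, Kcnq5 and Scn3a and the lowest for Kcnc1, Kcnf1, Kcnh6 and Kcnk16, as the values of each show, including 1496, 1335 and 3260.2 for Kcnq5, a further pore of the M current.

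The remaining channel genes are given here, and many of them were low. Cacnb4, a calcium channel beta subunit of the brain, was called higher in 57SCLC_allo than in 46LCNEC_allo, with 175, 226 and 204 against 34.4, 33.7 and 66.4 (called in 4 of 6 fits that left out 1 library), and in the cells it was not called (adjusted p = 0.0286). Cacng1, the gamma subunit of the skeletal muscle calcium channel, had 25.2, 66.3 and 68.6 in 46LCNEC_allo and 4.69, 2.21 and 3.84 in 46LCNEC_cell. The skeletal muscle markers were at 49.0065 to 183.141 in sum in those tumors, with Acta1 at 0, and their part in Cacng1 was not tested. Kcnd3, a channel of the transient outward current, and the alpha2delta gene Cacna2d4 were called lower in both allografts than in Lung, where they had 101, 135 and 86.6 and 298, 266 and 265 (Kcnd3 against 57SCLC_allo in 2 of 6 fits that left out 1 library). Kcna6 was above 0 only in Lung, with 28.4, 42.9 and 24.6. Kcnh4, Kcnk4, Kcnu1, Kcna7 and Cacng2 were called higher in 57SCLC_cell than in 46LCNEC_cell at means of 19.0 to 120.2 normalized counts, and the call for Cacng2 held in 3 of 6 fits that left out 1 library. Kcna1, Kcnc2, Kcng3, Kcnj16, Kcnk9, Kcns1, Scn10a and Scn11a stayed between 0 and 41.0 in all libraries. Cacna1s, Cacng3, Cacng6, Kcne1, Kcng4, Kcnk15, Kcnk18, Kcns2 and Kcnv2 reached at most 11.46 in any library.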

How the data were processed

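RNA-seq libraries of mouse cell lines, allografts and lung were read from 1 deposited matrix. The authors aligned paired-end reads to GRCm39 with Rbowtie2, counted reads per GENCODE M27 gene with featureCounts and divided them by DESeq2 size factors. The deposited values are therefore a normalized signal, whose low values step by whole reads (tolerance 0.1 read). Library reads recovered from these steps ranged from 9480244 to 44876572 (median 26502525), and intervals and floors (3 reads per library) cover counting error only. Strand setting is not given in the sources used here. Exon lengths came from GENCODE M39 on the same build (120 of 120 genes found).

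Each comparison used the 3 against 3 libraries of the groups, as named by the labels. Log2(normalized count + 1) was fitted with limma 3.58.1 (trend) in R 4.3.3, for genes reaching 10 normalized counts in 3 or more libraries, and p-values were adjusted by Benjamini-Hochberg over all genes tested. The interaction used 12 libraries. The script was tested on simulated data. Alternatives were TMM scaling, no filter, pseudocounts of 0.5 and 5, 1 model of all 15 libraries, edgeR 4.0.16 and DESeq2 1.42.0 on recovered reads, each library left out in turn (filter of 2 libraries) and the culture letter as a block.

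The channel genes and partner lists were chosen with earlier results of these data known. The genes named were all calcium and sodium channel pores, up to 12 called genes per direction and comparison with a mean of at least 50 normalized counts in the higher group and the largest change, the 10 highest per kb in each group, and the called partners with the smallest adjusted p. Some channel genes are not reported here by name and are left out of the figures of single genes, and counts and family sums include them. Other genes named were chosen after their values were seen.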

Additional observations from a re-analysis of the deposited data

Results flagged for a closer look

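The change from cultured cells to allografts differed between the lines for 24 channel genes, by the interaction term of limma over 12 libraries (log2 scale, positive where the change was more toward higher values in 57SCLC). The term was positive for 9 genes. It was 7.28 ± 0.73 (SE) for Kcnk10, 5.47 ± 0.80 for Cacng8, 5.44 ± 0.69 for Kcnn4, 4.30 ± 0.71 for Kcng1, 4.07 ± 0.73 for Kcnt2, 3.70 ± 0.60 for Cacng7, 3.66 ± 0.53 for Kcnf1, 3.07 ± 0.36 for Scn9a and 2.04 ± 0.38 for Cacna1g. For Kcnf1 the lines moved in opposite directions, with a rise to 4716, 5812 and 4613 normalized counts in 57SCLC_allo and a fall to 105, 401 and 189 in 46LCNEC_allo, both called, in 2 of 6 and 3 of 6 fits that left out 1 library.

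The term was negative for 15 genes, of which 13 are given here. It was -5.62 ± 1.15 for Kcnc4, -4.70 ± 0.35 for Kcnq1, -4.62 ± 0.85 for Cacng4, -4.18 ± 0.90 for Kcnh5, -3.75 ± 0.26 for Kcnk2, -3.74 ± 0.59 for Kcnk13, -3.73 ± 0.76 for Kcna5 and -3.42 ± 0.50 for Kcnk3. It was -3.34 ± 0.71 for Cacnb2, -2.97 ± 0.44 for Kcnv1, -2.67 ± 0.27 for Kcnh2, -2.65 ± 0.53 for Scn7a and -1.76 ± 0.44 for Kcnj1. Kcnk2, a stretch-sensitive two-pore channel, fell in 57SCLC from 2127, 1962 and 2242 to 649, 1026 and 984 and rose in 46LCNEC from 172, 158 and 151 to 870.2, 1108 and 738, both called. Genes at 0 in a group (Kcnc4 and Kcna5 in the 46LCNEC cells, Scn9a and Kcnj1 in the 46LCNEC allografts, Kcnv1 in both 46LCNEC groups and Kcnt2 in the 57SCLC cells) have terms that depend on the pseudocount. A fall from 0 cannot be seen, and the term of Kcnv1 is its change in 57SCLC alone (log2 fold change -2.97 ± 0.26). The summed smooth muscle, fibroblast, endothelial and macrophage markers were higher in all allografts than in the cells of their line, and their part in these terms was not tested.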

How the results depend on the processing

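Counts of channel genes called moved by over 1.5 times in 3 of 13 counts (6 comparisons in each direction, and the interaction in either). With all 15 libraries in 1 model, 21 genes were called higher in 46LCNEC_allo than in Lung (13 as reported) and 13 lower in 46LCNEC_allo than in 46LCNEC_cell (6 as reported), and DESeq2 called 20 in the first of these. Leaving out each library in turn gave 5 to 10 genes lower in 57SCLC_allo than in 46LCNEC_allo (5 without tumor 275, 6 without 317 and 7 without 316 or 321, against 12), 8 to 16 higher in 46LCNEC_allo than in Lung (8 without CT3 or CT4), and 0 to 10 lower in 46LCNEC_allo than in 46LCNEC_cell (0 or 1 without a dish, 10 without tumor 321). The cause was not tested. The other counts stayed within 1.5 times under the alternatives run. Of 1753 gene results under alternatives, 1670 kept their direction and side of the threshold, 83 lost the call and 0 turned direction. They cover only the 133 called results with the largest changes, and fits in which a gene was not tested are left out. Among all channel genes called, those kept in every fit that left out 1 library ranged widely. They were 0 of 6 lower in 46LCNEC_allo than in 46LCNEC_cell and 15 of 15 lower in 57SCLC_cell than in 46LCNEC_cell. With the culture letter as a replicate block, 57 genes were called higher and 15 lower in 57SCLC_cell, as without it, and the letters did not pair the cultures: deviations of same-letter cultures correlated at 0.0916 (A), -0.0837 (B) and -0.00619 (C), and not every culture correlated best with its own letter. Depth limits genes near 3 reads per library, for which a difference was not detectable.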
